A study of Mus musculus with 18 samples.

Results

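Gene expression in the apex of the cochlea was compared between mice labelled Fst cKO, a conditional knock-out of the follistatin gene, and control mice. The comparison took the 3 cKO apex libraries and the 3 control apex libraries of a series of 18, and all genes that passed a filter on low counts, 17901 of the 46583 genes in the table. The mice were 4 weeks old. Per the labels, cKO samples carry the Fst conditional knock-out, and control samples have the genotype WT and were untreated. The promoter that drove the recombination, the number and sex of the animals and the hour of collection are not given in the sources used here. Tissue of each region and genotype was pooled, RNA was extracted from the pool, and 3 technical libraries were made from it. Each group is therefore 1 pool of RNA, and every SD, standard error and p-value below carries the spread between libraries of a pool and not between animals. The same pools exist for the middle and the base of the cochlea and were set beside the apex.

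Fst encodes follistatin, a secreted protein that binds activins and keeps them from their receptors, and in the developing cochlea it is expressed most strongly towards the apex, the region that receives low-frequency sound. Activins and the related TGF-β ligands signal through Smad2 and Smad3, while BMPs signal through Smad1, Smad5 and Smad9. The adult cochlea also has its own circadian clock and glucocorticoid receptors, and both control genes in many of its cell types. Fibrocytes of the spiral ligament carry potassium back from the perilymph towards the stria vascularis. They also express Slc4a11, a member of the Slc4 family of transporters.

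The apex libraries held 26896422, 27007461 and 27024003 counts for cKO, against 28621154, 28741744 and 28757864 for control. At these depths the limit that a count of 0 allows, 3 counts in a library, corresponds to between 0.104 and 0.112 CPM, counts scaled to library size, which covers counting error only. Fst (ENSMUSG00000021765, chromosome 13, 114452290 to 114458951, minus strand, positions on GRCm38) had 9.58, 9.46 and 10.2 CPM in the cKO apex, against 22.9, 24.5 and 24.1 CPM in the control apex. The groups did not overlap, the log2 change was -1.29 ± 0.063 (cKO over control, standard error, 3 libraries each), and transcript remained in the cKO pool. Markers of the tissue were present in both groups: Coch, which encodes the spiral ligament protein cochlin, averaged 19290 CPM in cKO and 17280 CPM in control, and the hair cell motor gene Slc26a5 averaged 19.7 CPM in cKO and 20.3 CPM in control. In bulk RNA, fewer cells of a type and less RNA per cell cannot be told apart.

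A gene was called when its Benjamini-Hochberg adjusted p (edgeR quasi-likelihood F test, two-sided) was under 0.05 and its log2 change was at least 0.5 in either direction. Under this rule 1011 of the 17901 genes tested (5.65%) were called in the apex, 669 higher in cKO (3.74%) and 342 lower (1.91%). The call rests mainly on the fold, because technical libraries vary so little that 21.8% of all genes were higher and 18.8% lower by the adjusted p alone. Many calls were at low level or on marker lists of neighbouring tissue: 207 of the genes called higher and 105 of those called lower averaged under 1 CPM, and 138 and 21 stood on such lists. By the same rule 6.56% of all genes were called in the middle (4.55% higher, 2.01% lower) and 8.12% in the base (4.81% higher, 3.31% lower). Whether the apex change differed from the mean of the middle and base changes was tested by an interaction contrast with the same thresholds, here the region test, which called 5.17% of genes (2.27% above 0 and 2.9% below).

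The well-expressed genes, those with a mean of at least 20 CPM over the 18 libraries, numbered 8665, and shifts among them were moderate. Of these genes 129 (1.49%) were called, 101 higher (1.17%) and 28 lower (0.323%), and 16 of them had a log2 change of at least 1. The median absolute log2 change of the well-expressed genes was 0.091. Leaving out members of the lists of neighbouring tissue, and genes that differed by 0.5 or more (log2) between control middle and control base, 90 of 8457 genes (1.06%) were called, 69 higher and 21 lower. Of the 101 well-expressed genes called higher in the apex, 20 were also called higher in the middle, 25 in the base and 9 in both, and 44 were also called above 0 by the region test. That test called 1.33% of well-expressed genes, 0.704% above 0 and 0.623% below, but it contains the apex change that chose the 101 genes, so nothing is read from this count. The same limit holds below for single genes that were chosen by their apex change. Of the 28 called lower, 10 were also lower in the middle, 13 in the base and 7 in both, and 11 were called below 0 by the region test. In the middle 1.23% of well-expressed genes were called higher and 0.381% lower, and in the base 0.912% and 2.25%.

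**Figure D1:**
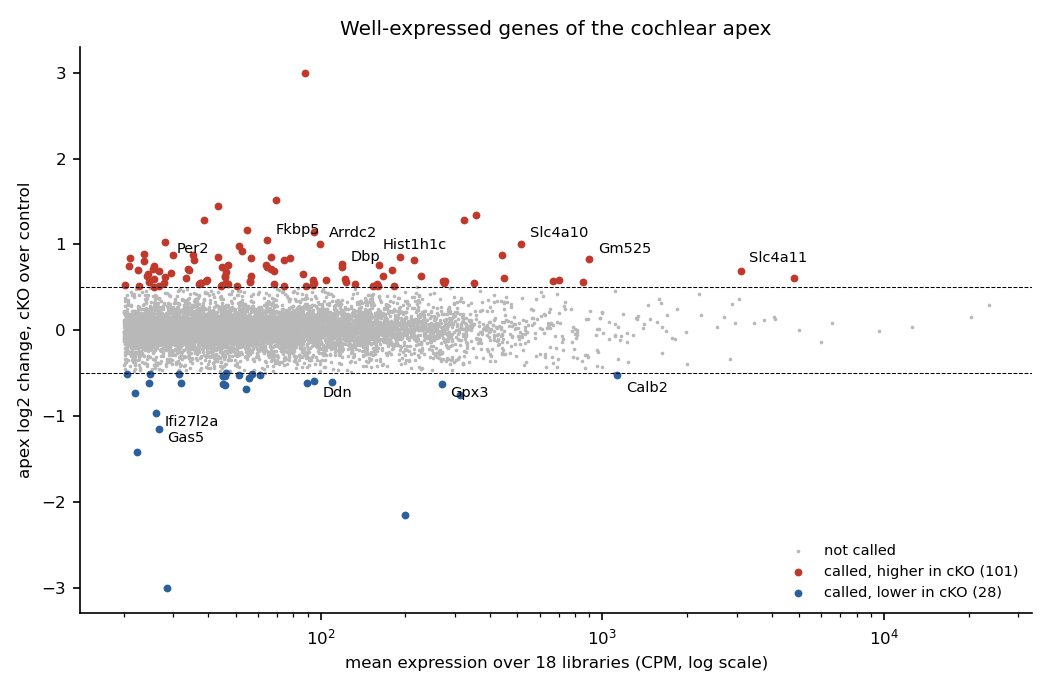
Mean expression over the 18 libraries (x axis, CPM, log scale) and log2 change of cKO over control in the apex (y axis) of the 8665 well-expressed genes. Red points are the 101 genes called higher in cKO, blue points the 28 called lower, grey points are not called and dashed lines mark a log2 change of 0.5 in either direction. 2 genes beyond a log2 change of 3 are drawn at that limit, and Slc4a11, Gm525, Slc4a10 and Calb2 are among the most abundant genes called.

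Genes that glucocorticoid receptors are known to switch on stood higher in the cKO apex. Of 20 listed members, all tested, 7 were called higher and none lower, where 3.74% of all genes were called higher. By the adjusted p alone 17 were higher and 1 lower, and 19 of 20 had a log2 change above 0, where 51.0% of all genes did and 48.9% had one below 0. The median was 0.43, against 0.005 over all genes tested, and it was 0.35 in the middle and 0.26 in the base. The list and its members were chosen with results of these data known, so the count describes these pools. The part of the hour of collection and of handling in these values was not tested.

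Fkbp5 (chromosome 17, 28399094 to 28517527, minus strand), the co-chaperone that dampens the glucocorticoid receptor and is itself induced by it, had 68.4, 66.8 and 69.3 CPM in the cKO apex, against 33.7, 33.5 and 31.9 CPM in the control apex. All 3 cKO libraries stood above all 3 control libraries, with a log2 change of 1.05 ± 0.032 (adjusted p = 2e-24, edgeR). Its changes of 1.12 in the middle and 0.83 in the base were of similar size, and the region test did not call it (0.07 ± 0.038). Arrdc2, an arrestin-domain gene, had 95.3, 97.1 and 98.3 CPM in cKO, against 49.5, 47.9 and 47.2 CPM in control (1.01 ± 0.032), and the change in the apex exceeded the mean of the other regions by 0.64 ± 0.038 (adjusted p = 6.2e-16, edgeR). Zbtb16, the zinc finger repressor PLZF, averaged 66.0 ± 0.70 CPM in cKO and 41.1 ± 0.98 CPM in control (SD, n = 3 libraries), and Klf9, a zinc finger factor that also answers to thyroid hormone, averaged 157 ± 2.1 CPM in cKO and 110 ± 1.7 CPM in control. The CCAAT-binding factors Cebpb and Cebpd rose as well, to means of 27.6 and 15.1 CPM in cKO, against 17.5 and 8.99 CPM in control. Arrdc2, Zbtb16, Klf9 and Cebpb were each higher in all 3 cKO libraries than in any control library.

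Lcn2, the remaining member called, encodes the iron-carrier protein lipocalin 2 and is also a neutrophil gene. It averaged 9.82 CPM in cKO and 5.59 CPM in control, with log2 values of 0.81 in the apex, -0.01 in the middle and 1.57 in the base, where the neutrophil list had medians of 0.71, -0.25 and 1.59, and the part of neutrophils in its value was not tested. Well-known targets below the threshold were Sgk1 (0.27), a kinase that regulates sodium transport, Tsc22d3 (0.21), the anti-inflammatory factor GILZ, Ddit4 (0.46), an inhibitor of mTOR, and Nfkbia (0.49), the inhibitor of NF-κB. The cell cycle inhibitor Cdkn1a stood at -0.08, and the receptor gene Nr3c1 at 0.14. The metallothionein Mt1, which also answers to metals, was on another list and was called higher, with 148 ± 1.8 CPM in cKO and 100 ± 1.6 CPM in control (0.56 ± 0.021).

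Of the circadian clock genes, Per2, Dbp and Ciart, which belong to the repressors and outputs that CLOCK and BMAL1 switch on, rose in the cKO apex. No member was called lower. Of 18 members tested 3 were called higher, where 3.74% of all genes were. By the adjusted p alone 11 were higher and 3 lower, where 21.8% and 18.8% of all genes were. Values lay above 0 for 12 members and below 0 for 6, and the median was 0.18, with 0.26 in the middle and 0.16 in the base.

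Per2 (chromosome 1, 91415982 to 91459324, minus strand), a repressor of the loop, had 55.4, 57.7 and 55.6 CPM in the cKO apex, against 30.8, 31.8 and 31.2 CPM in the control apex. The log2 change was 0.85 ± 0.029 (adjusted p = 6.1e-23, edgeR), and it was 0.90 in the middle and 0.82 in the base. The level was nearly the same in every region of a genotype, 56.3, 55.6 and 55.8 CPM in cKO apex, middle and base, against 31.2, 29.7 and 31.6 CPM in control. Regions of a genotype can share animals, so like values in them are not independent repeats. The hour of collection is not given, and its part in the clock values was not tested. Dbp, an output factor that binds D-boxes, had 162, 152 and 150 CPM in the cKO apex, against 93.5, 94.8 and 90.8 CPM in the control apex (0.73 ± 0.028), with 0.94 in the middle and 0.62 in the base. Ciart, a repressor of CLOCK and BMAL1, averaged 22.1 ± 0.81 CPM in cKO and 14.2 ± 0.25 CPM in control (0.65 ± 0.052).

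Per1, another repressor, had a log2 change of 0.50 in each region when rounded, which fell just short of the threshold in the apex and middle and passed it in the base. It had 173, 174 and 176 CPM in the cKO apex, against 126, 124 and 120 CPM in the control apex. Per3 stood at 0.38 and Tef, an output factor related to Dbp, at 0.31. The 3 members lower by the adjusted p alone were the activators Arntl, Npas2 and Clock. Arntl, which encodes BMAL1, averaged 17.6 ± 1.2 CPM in cKO and 23.5 ± 0.35 CPM in control (-0.41 ± 0.057), Npas2 averaged 12.3 CPM in cKO and 17.2 CPM in control (-0.49 ± 0.064), and Clock stood at -0.17. Arntl and Npas2 had values of -0.60 and -0.96 in the middle and -0.27 and -0.60 in the base, so their sign was the same in the 3 regions. None of the 3 activators passed the fold threshold in the apex, while the middle values of Arntl and Npas2 and the base value of Npas2 lay beyond it.

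**Figure D2:**
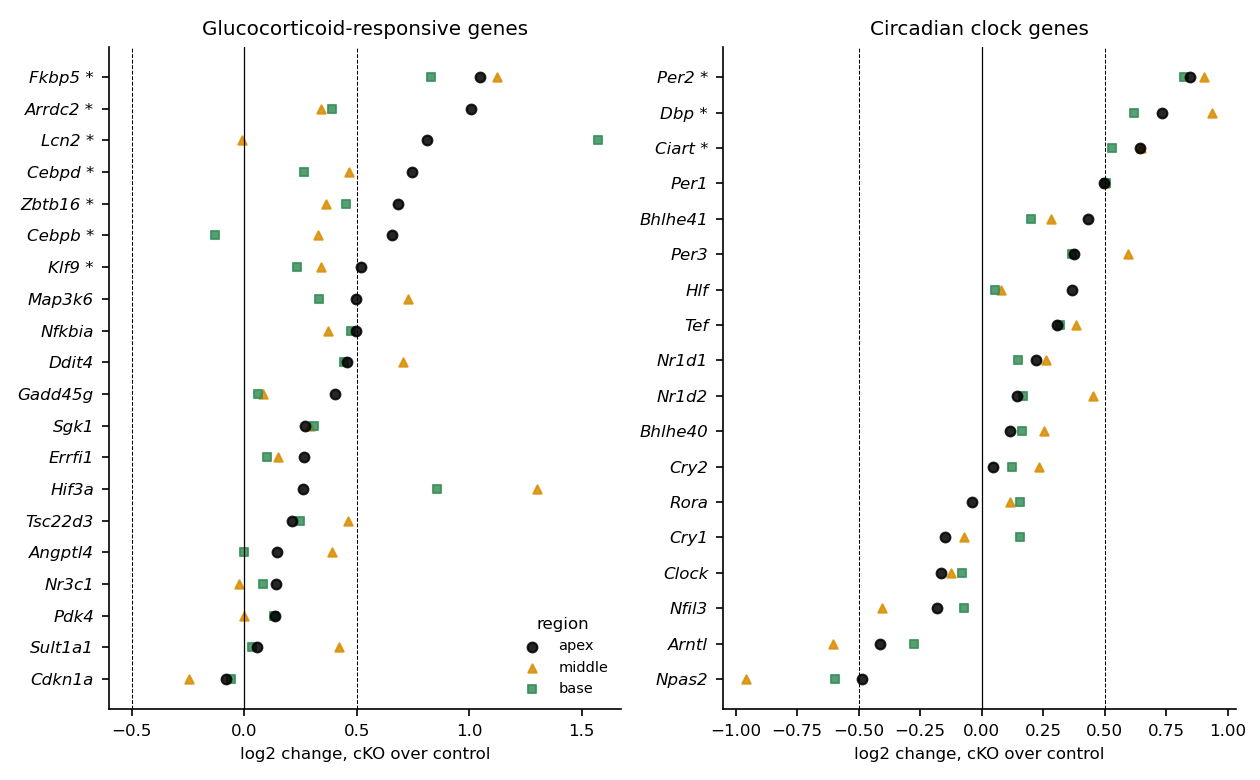
Log2 change of cKO over control (x axis) of the 20 glucocorticoid-responsive genes (left) and the 18 circadian clock genes (right), in the apex (black circles), middle (orange triangles) and base (green squares). Dashed lines mark 0.5 in either direction and an asterisk marks genes called in the apex. Fkbp5, Per2, Dbp and Ciart lie beyond 0.5 in all 3 regions, and Arntl and Npas2 below 0 in all 3.

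The promoters of 3 of these genes are shown because they hold the E-box CACGTG, the sequence that CLOCK and BMAL1 bind, which reads the same on both strands. They run from 250 bases before to 50 bases after the start in RefSeq (GRCm38.p6), 5′ to 3′ on the strand of the gene, with matches in capitals.
Ciart (chr3:95882179-95882478, minus strand): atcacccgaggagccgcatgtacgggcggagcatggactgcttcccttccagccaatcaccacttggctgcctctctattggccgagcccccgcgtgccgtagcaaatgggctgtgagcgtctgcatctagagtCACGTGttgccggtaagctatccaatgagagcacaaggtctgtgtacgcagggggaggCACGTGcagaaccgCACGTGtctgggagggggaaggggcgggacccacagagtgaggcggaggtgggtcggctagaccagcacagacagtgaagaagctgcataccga
Per1 (chr11:69098699-69098998, plus strand): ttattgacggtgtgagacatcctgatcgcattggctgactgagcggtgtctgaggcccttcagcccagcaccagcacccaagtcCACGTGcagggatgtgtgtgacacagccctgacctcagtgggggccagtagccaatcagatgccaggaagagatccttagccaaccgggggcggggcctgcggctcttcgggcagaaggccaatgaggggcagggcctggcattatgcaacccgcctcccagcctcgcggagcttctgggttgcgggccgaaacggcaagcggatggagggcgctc
Fkbp5 (chr17:28486100-28486399, minus strand): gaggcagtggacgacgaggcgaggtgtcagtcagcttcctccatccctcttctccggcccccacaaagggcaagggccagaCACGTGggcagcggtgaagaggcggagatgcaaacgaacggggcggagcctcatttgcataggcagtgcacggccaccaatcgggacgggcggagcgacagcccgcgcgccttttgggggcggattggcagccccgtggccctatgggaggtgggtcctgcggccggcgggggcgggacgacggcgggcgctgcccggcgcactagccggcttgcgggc
In Ciart the matches began 116, 58 and 44 bases before the start, in Per1 166 bases and in Fkbp5 169 bases before it. Of the 18 clock genes 16 had a promoter in the RefSeq table, with 21 promoters in all. Of these 21 promoters 6 (28.6%) held the E-box, in Ciart, Per1, Tef, Bhlhe41 and Cry1, where 7.15% of all 32851 promoters did. Of these genes Ciart alone was called in the apex, and the called genes Per2 and Dbp were not among those with a match. The glucocorticoid list, which includes Fkbp5, held the E-box in 3 of its 25 promoters. The full glucocorticoid response element, an inverted repeat of the half-site AGAACA with 3 bases between, was in 3 of the 32851 promoters, 1 of them a promoter of Sgk1. The half-site alone overlaps the full element and was searched on both strands. It was in 5 of the 25 promoters of the glucocorticoid list and, at a similar share, in 6233 of all 32851 promoters. A match of letters in this window is a description and does not show binding.

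Well-expressed genes on no list of neighbouring tissue that were called the same way in apex, middle and base numbered 4 higher and 6 lower. Besides Fkbp5, Per2 and Dbp, the other that rose was Gpnmb, a glycoprotein of melanosomes and lysosomes found in melanocytes and macrophages, with 109, 106 and 108 CPM in the cKO apex, against 63.7, 63.8 and 61.9 CPM in the control apex (0.77 ± 0.028). Among the 6 that fell were Gas5, Calb2, Ddn and Lancl3. Gas5 (chromosome 1, 161034422 to 161038539, plus strand), a noncoding RNA that hosts small nucleolar RNAs and has been described as a decoy of the glucocorticoid receptor, had 16.2, 17.8 and 15.6 CPM in cKO, against 35.7, 37.2 and 37.5 CPM in control. Its log2 change was -1.15 ± 0.051 in the apex, -0.91 in the middle and -0.80 in the base.

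Ddn, which encodes the postsynaptic and podocyte protein dendrin, had 75.9, 73.5 and 75.9 CPM in the cKO apex, against 113, 113 and 112 CPM in the control apex (-0.59 ± 0.023). Lancl3 averaged 21.3 CPM in cKO and 35.4 CPM in control. Lancl3 lies on the X chromosome, and the pools differed in sex-linked transcripts in every region: Xist averaged 81.1 CPM in cKO and 362 CPM in control in the apex, and the 4 Y-linked genes tested were called higher in cKO (log2 0.75 to 0.88). The part of the sex of the pooled animals in any result was not tested.

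A further fit took the 6 pools as 6 samples, with region and genotype as factors and 2 residual degrees of freedom, and was added after the data had been seen. It gave Per2 a genotype change of 0.86 ± 0.039 (adjusted p = 0.0594, edgeR), and Fkbp5, Gpnmb and Ddn adjusted p-values of 0.109. Chrnb3, a nicotinic receptor subunit gene on the list of central neurons with 0 counts in the control apex, was the 1 gene called there (adjusted p = 0.0185, edgeR), and 2025 genes had an unadjusted p under 0.05. Base, middle and apex of one genotype can share animals, which leaves animal-to-animal spread unmeasured here as well.

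**Figure D3:**
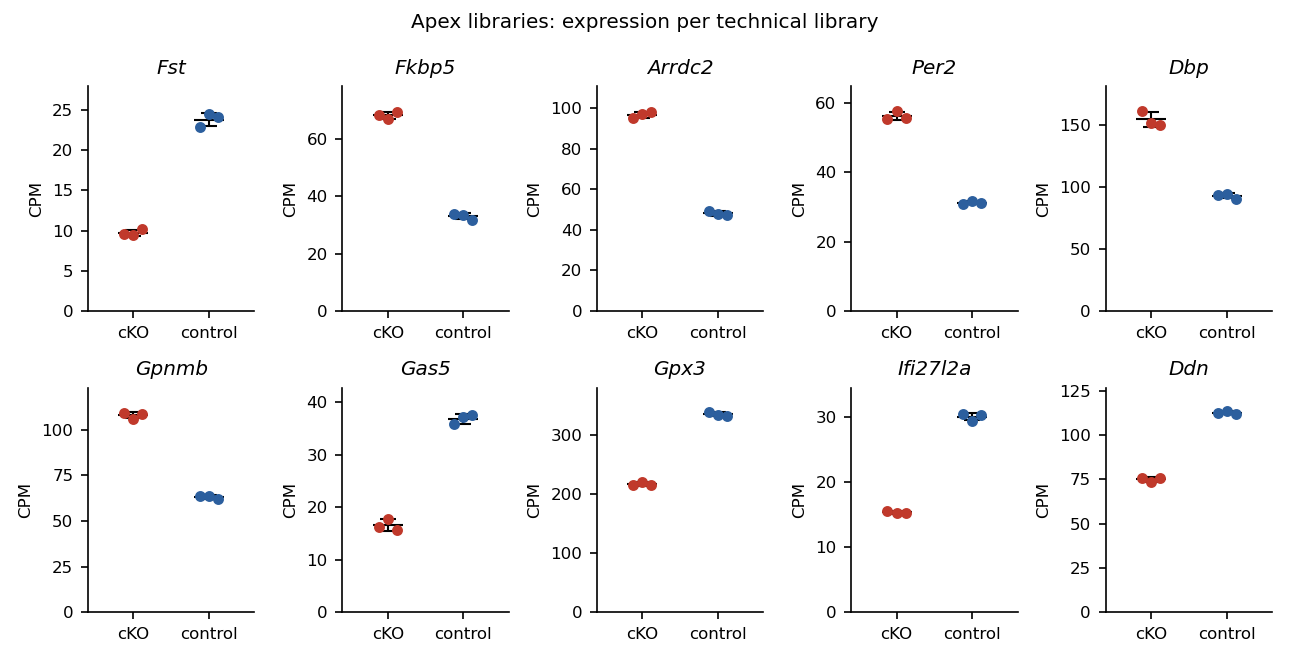
Expression (y axis, CPM, from 0) of 10 genes in each of the 3 cKO apex libraries (red, left) and the 3 control apex libraries (blue, right). Black marks give the mean and SD of the 3 technical libraries of 1 pool. Fst, Gas5, Gpx3, Ifi27l2a and Ddn lie lower in cKO and Fkbp5, Arrdc2, Per2, Dbp and Gpnmb higher, with no overlap between the groups.

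From a mean of 400 CPM, a level chosen after the values had been seen, 8 of 226 genes on no list of neighbouring tissue were called, 7 higher (Slc4a11, Gm525, Slc5a3, Aebp1, Dcn, Iqgap2 and Slc4a10) and 1 lower (Calb2). Slc4a11 (chromosome 2, 130684113 to 130697519, minus strand), a borate transporter-like protein of the spiral ligament fibrocytes whose loss causes hearing loss, had 2884, 2874 and 2858 CPM in the cKO apex, against 1783, 1761 and 1783 CPM in the control apex (0.69 ± 0.0064). Slc4a10 (chromosome 2, 62046462 to 62326730, plus strand), a sodium-driven bicarbonate transporter, had 455, 455 and 447 CPM in cKO, against 226, 226 and 224 CPM in control (1.01 ± 0.021). The sodium and myo-inositol cotransporter Slc5a3 averaged 856 ± 5.9 CPM in cKO and 580 ± 2.4 CPM in control (0.56 ± 0.0097). Gm525, a predicted protein-coding gene, averaged 1049 ± 3.9 CPM in cKO and 590 ± 2.0 CPM in control (0.83 ± 0.011).

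For these 4 genes the control apex pool was the lowest of the 6 pools. Slc4a10 averaged 453 CPM in the cKO apex, against 225 CPM in the control apex, 482 CPM in the cKO middle, against 648 CPM in the control middle, and 671 CPM in the cKO base, against 620 CPM in the control base. Slc4a11 had 2872 CPM in the cKO apex, against 1775 CPM in the control apex, 2799 CPM in the cKO middle, against 3922 CPM in the control middle, and 3837 CPM in the cKO base, against 3428 CPM in the control base. The cKO apex was thus nearer to the middle and base levels than the control apex was. In the middle the sign was the opposite, with log2 values of -0.43 for Slc4a10, -0.49 for Slc4a11, -0.43 for Gm525 and -0.28 for Slc5a3. The apex change exceeded the mean of the other regions by 1.16 ± 0.020 for Slc4a10 and 0.86 ± 0.0061 for Slc4a11. The excess was 1.15 ± 0.012 for Gm525 and 0.67 ± 0.010 for Slc5a3, and all 4 passed the region test. These genes were chosen by their apex call, and that test contains the apex change, so nothing is read from its calls.

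Dcn, the collagen-binding proteoglycan decorin, averaged 597 ± 6.5 CPM in the cKO apex and 403 ± 3.2 CPM in the control apex (0.57 ± 0.016), with 0.18 in the middle and -0.02 in the base. Aebp1, a secreted collagen-binding protein of connective tissue, averaged 846 ± 2.4 CPM in cKO and 563 ± 6.4 CPM in control (0.59 ± 0.0098), with -0.10 in the middle and 0.17 in the base. Iqgap2, a scaffold of the actin cytoskeleton, averaged 464 ± 4.1 CPM in cKO and 304 ± 1.2 CPM in control (0.61 ± 0.015). The gene that fell was Calb2, which encodes the calcium buffer calretinin of spiral ganglion neurons and inner hair cells. It had 1252, 1236 and 1221 CPM in the cKO apex, against 1780, 1773 and 1782 CPM in the control apex, a log2 change of -0.52 ± 0.0042, with -0.69 in the middle and -0.75 in the base.

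**Figure D4:**
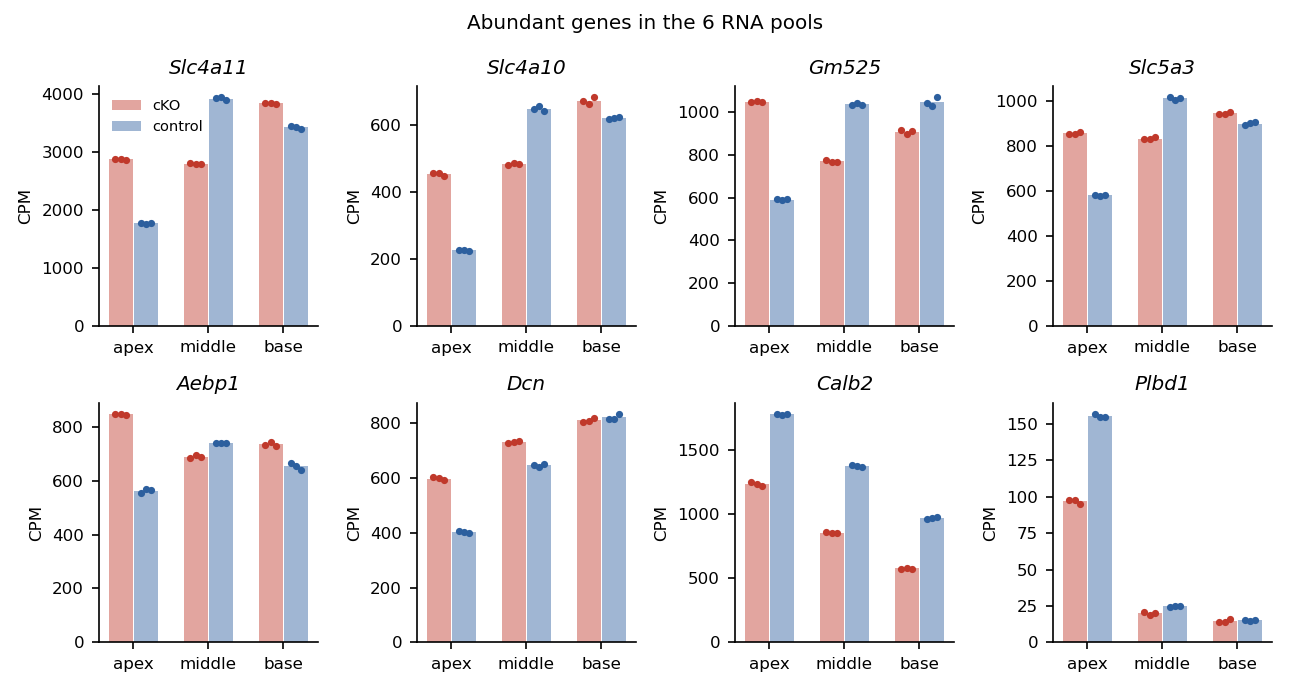
Mean expression (bars, CPM, from 0) with each of the 3 libraries (points) in cKO (red, left) and control (blue, right) apex, middle and base. Slc4a11, Slc4a10, Gm525 and Slc5a3 were lowest in the control apex, Calb2 was lower in cKO in every region, and Plbd1 was highest in the apex of both genotypes.

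Other well-expressed genes that rose in the apex, level between control middle and control base and on no list of neighbouring tissue, had mixed functions. Stk17b, a kinase of the death-associated family, averaged 38.7 ± 0.61 CPM in cKO and 19.6 ± 0.86 CPM in control (0.98 ± 0.038). Adra2a, the alpha-2A adrenergic receptor, averaged 32.6 CPM in cKO and 18.5 CPM in control (0.82 ± 0.039), with -0.08 in the middle and 0.18 in the base. Mapk4, an atypical MAP kinase, averaged 202 CPM in cKO and 115 CPM in control (0.81 ± 0.021), Tpd52l1 58.0 CPM in cKO and 34.4 CPM in control, and the homeobox gene Msx3 65.6 CPM in cKO and 38.9 CPM in control. Lbp, the lipopolysaccharide-binding protein, averaged 57.4 CPM in cKO and 34.4 CPM in control. The apex change minus the mean of the other regions was 0.53 for Stk17b, 0.77 for Adra2a and 0.56 for Mapk4. It was 0.62 for Tpd52l1, 0.92 for Msx3 and 0.51 for Lbp, and all 6 passed the region test. These genes were chosen by their apex change, which that test contains, so nothing is read from its calls.

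Replication-dependent histone genes gave 4 called higher of 14 tested and none lower, where 3.74% of all genes were called higher. Their median was 0.31 in the apex, -0.18 in the middle and -0.03 in the base. The linker histone Hist1h1c, by far the most abundant of the 4, had 158, 159 and 162 CPM in the cKO apex, against 94.4, 93.4 and 95.5 CPM in the control apex (0.76 ± 0.024). Hist1h4h and Hist1h4i, which encode the same histone, averaged 6.23 and 7.56 CPM in cKO, against 3.08 and 4.25 CPM in control, and reads could be split between near-identical copies. Hist1h2ac averaged 0.367 CPM in cKO and 0.102 CPM in control. Beside this, the list of proliferation genes, treated as a sign of neighbouring marrow, had 20 of 37 members called higher in the apex, a median of 0.63 there, -0.27 in the middle and 0.90 in the base, and a summed level of 327 to 333 CPM in the cKO apex, against 280 to 284 CPM in the control apex. Its part in the histone values was not tested.

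Of 15 genes of spiral ligament fibrocytes tested, 2 were called higher (Slc4a11 and Dcn) and none lower, where 3.74% of all genes were called higher. By the adjusted p alone 11 were higher and 1 lower, where 21.8% and 18.8% of all genes were, and the median was 0.16, with -0.09 in the middle and 0.00 in the base. Car3, a carbonic anhydrase that is also on the adipocyte list, averaged 1188 ± 6.7 CPM in cKO and 868 ± 6.3 CPM in control (0.45), Coch stood at 0.16 and Otos, which encodes otospiralin, at 0.00, so abundant members differed among themselves. Of 23 enzymes that process collagen 1 was called, a share near that of all genes (Loxl1, a lysyl oxidase, 50.3 CPM in cKO and 35.2 CPM in control, 0.51 ± 0.032), 18 were higher and 1 lower by the adjusted p alone, and the median was 0.16, with 0.04 in the middle and -0.02 in the base. The lysyl oxidase Lox stood at 0.40 and the procollagen protease Bmp1 at 0.39. Of 11 genes that answer to the mechanically regulated factors YAP and TAZ, Cyr61, a matricellular protein, was called (56.7 CPM in cKO and 38.3 CPM in control, 0.56 ± 0.031), its relative Ctgf stood at 0.43, and the median was 0.25, with 0.03 in the middle and 0.06 in the base. Beside these, the osteoblast and bone matrix list had 12 of 22 members called higher and a median of 0.62, but its summed level was 5316 to 5343 CPM in cKO, against 5446 to 5479 CPM in control, and its part was not tested.

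Falls among well-expressed genes included secreted and interferon-inducible products. Gpx3 (chromosome 11, 54902453 to 54910377, plus strand), a secreted glutathione peroxidase that was the 1 of 20 antioxidant enzymes called, had 215, 220 and 215 CPM in the cKO apex, against 339, 334 and 332 CPM in the control apex (-0.63 ± 0.017). It stood at -0.19 in the middle and -0.09 in the base, and the difference of -0.48 lay just under the threshold of that test. The 1 call among 20 antioxidant enzymes was a share near the 5.65% of all genes called. The interferon-inducible Ifi27l2a had 15.6, 15.2 and 15.3 CPM in cKO, against 30.5, 29.4 and 30.2 CPM in control (-0.97 ± 0.047), with -0.55 in the middle and 0.37 in the base. None of the 21 genes on the interferon list was called (edgeR), and a list of this size can lack a call at a share of 5.65%. By the adjusted p alone 9 of them were higher and 2 lower, where 21.8% and 18.8% of all genes were. Crhbp, which binds corticotropin-releasing hormone, and Plbd1, a phospholipase-like protein, were picked after their values had been seen. Crhbp averaged 226 ± 1.7 CPM in the cKO apex and 382 ± 2.6 CPM in the control apex (-0.76 ± 0.017), with 0.24 in the middle and -0.43 in the base. Plbd1 averaged 96.9 ± 1.8 CPM in cKO and 156 ± 1.2 CPM in control (-0.68 ± 0.021) in the apex, and 20.1 CPM in the cKO middle and 24.8 CPM in the control middle.

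The other named falls had mixed functions, with receptors and partners of ion channels among them. Gria4, an AMPA receptor subunit, averaged 36.5 ± 1.4 CPM in cKO and 56.8 ± 0.47 CPM in control (-0.64 ± 0.033). Rgs4, a regulator of G protein signalling, averaged 62.0 CPM in cKO and 94.4 CPM in control (-0.61 ± 0.028), with -0.09 in the middle and 0.36 in the base. Fgf12, an intracellular partner of sodium channels, averaged 66.8 CPM in the cKO apex and 102 CPM in the control apex (-0.61 ± 0.027), and was higher in the cKO middle (1.07) and lower in the cKO base (-0.70). Dpp6, a partner of Kv4 potassium channels, averaged 16.3 CPM in cKO and 23.2 CPM in control (-0.51 ± 0.050), but 52.2 CPM in the cKO middle and 17.9 CPM in the control middle. The call of Dpp6 was lost without control replicate 2 (-0.45) or cKO replicate 3 (-0.46), and when the normalization left out the lists of neighbouring tissue (-0.50). Zfp804a, Clgn and Pdp1 had log2 changes of -0.56, -0.62 and -0.54, and Pdp1 was just short of the threshold without cKO replicate 2 (-0.50).

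Markers of spiral ganglion neurons and of their Schwann cells stood lower together, mostly by less than the fold threshold. Of 26 neuronal members 2 were called lower (Calb2 and the low-level neurofilament gene Prph), where 1.91% of all genes were. By the adjusted p alone 22 were lower and 1 higher, where 18.8% and 21.8% of all genes were. The median was -0.35 in the apex, 0.02 in the middle and -0.53 in the base. The neurofilament gene Nefm averaged 847 ± 4.2 CPM in cKO and 1150 ± 7.6 CPM in control (-0.44), and the synaptic gene Snap25 920 ± 3.3 CPM in cKO and 1236 ± 7.8 CPM in control (-0.43). The list summed to 8153 to 8210 CPM in the cKO apex, against 10721 to 10726 CPM in the control apex. All 19 Schwann cell genes had values below 0 in the apex and 17 were lower by the adjusted p alone, but none passed the fold threshold; the median was -0.28, with 0.06 in the middle and -0.23 in the base. Cholesterol synthesis, which myelinating cells use heavily, had 20 of 22 members below 0, 15 lower by the adjusted p alone, none called, and a median of -0.18, with -0.03 in the middle and 0.00 in the base; the squalene synthase gene Fdft1 stood at -0.29. Whether the lower cholesterol genes followed the lower Schwann cell genes was not tested.

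Among genes of activin, TGF-β and BMP signalling, Tgfb1 and Id1 were called higher and Fst itself lower. The medians of the activin list and of the Smad list were near 0 (0.04 and 0.03). Of 19 activin pathway genes, where 5.65% of all genes were called, 1 was called lower (Fst) and 1 higher, Tgfb1, the TGF-β1 ligand, with 13.2 ± 1.1 CPM in cKO and 8.62 ± 0.51 CPM in control (0.61 ± 0.067). The activin subunit genes Inhba and Inhbb stood at 0.11 ± 0.14 and 0.04 ± 0.17, at 3.48 and 2.28 CPM in cKO, against 3.22 and 2.21 CPM in control, and Fstl3, a relative of follistatin, stood at 0.49. Of 20 Smads and Smad targets, 2 were called, both higher, among them Id1, an inhibitor of helix-loop-helix factors induced by BMP, with 83.2, 79.4 and 81.5 CPM in cKO, against 56.5, 53.5 and 53.7 CPM in control (0.58 ± 0.026). Id3 stood at 0.33, and the inhibitory Smads Smad6 and Smad7 at 0.31 and 0.30. By the adjusted p alone 8 of the 20 were higher and 7 lower, where 21.8% and 18.8% of all genes were, and the median of the list was 0.03.

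Of 19 BMP ligands, receptors and antagonists, 3 were called higher and none lower, where 3.74% and 1.91% of all genes were. Of the 3 called, Grem1 and Bmper encode antagonists or extracellular modulators of BMPs, and Sost was counted with this list. Sost had 16.5 CPM in cKO and 8.66 CPM in control (0.93 ± 0.056). Grem1 had 2.45 CPM in cKO and 1.42 CPM in control. Bmper had 9.84 CPM in cKO and 6.84 CPM in control (0.52 ± 0.087, and 0.48 without cKO replicate 1). Sost also marks bone, and its log2 values of 1.26 in the middle and -0.30 in the base stood beside osteoblast medians of 0.84 and -0.16; the part of bone in its value was not tested. Bmp4 stood at 0.48, with 31.7 ± 0.70 CPM in cKO and 22.6 ± 0.58 CPM in control. Of 35 Wnt genes 2 were called higher and 1 lower, where 5.65% of all genes were called either way. The antagonist Sfrp1 was called lower (66.5 ± 0.83 CPM in cKO and 95.7 ± 1.3 CPM in control, -0.52 ± 0.024), and it was 0.31 in the middle. Wnt16 and the antagonist Dkk1 were called higher at low level. Their means were 4.83 and 1.36 CPM in cKO, against 2.76 and 0.498 CPM in control. None of 19 Hedgehog genes was called in either direction (edgeR), and the median was 0.12. By the adjusted p alone 7 were higher and 4 lower, where 21.8% and 18.8% of all genes were.

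Of the 38 pathway lists 20 had no member called in the apex, where 5.65% of all genes and 1.49% of well-expressed genes were called. Lists of this size can lack a call at such shares, so nothing is read from this count. The 20 lists include nuclear oxidative phosphorylation (median 0.01 over 22 genes), the proteasome (-0.01 over 25) and the lysosome (0.06 over 23). Glycolysis and hypoxia (0.06 over 24), the unfolded protein response (-0.02 over 19) and axon guidance (-0.02 over 28) are also among them. Cytosolic ribosomal protein genes had a median of 0.13, with 19 of 24 higher by the adjusted p alone and none beyond the fold threshold, against -0.12 in the middle. Heat shock protein genes had a median of -0.10, and 11 of 18 were lower by the adjusted p alone, among them the abundant chaperone gene Hspa8 (885 ± 3.8 CPM in cKO and 1057 ± 9.9 CPM in control, -0.26). Of 29 hair cell genes 1 was called higher and 1 lower, a share near that of all genes. By the adjusted p alone 6 were higher and 12 lower, where 21.8% and 18.8% of all genes were. Their median was -0.04, with 0.49 in the middle and 0.08 in the base. Of 20 supporting cell genes 1 was called higher, again near that share, and 9 were higher and 7 lower by the adjusted p alone. The median was 0.02, with -0.05 in the middle.

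**Figure D5:**
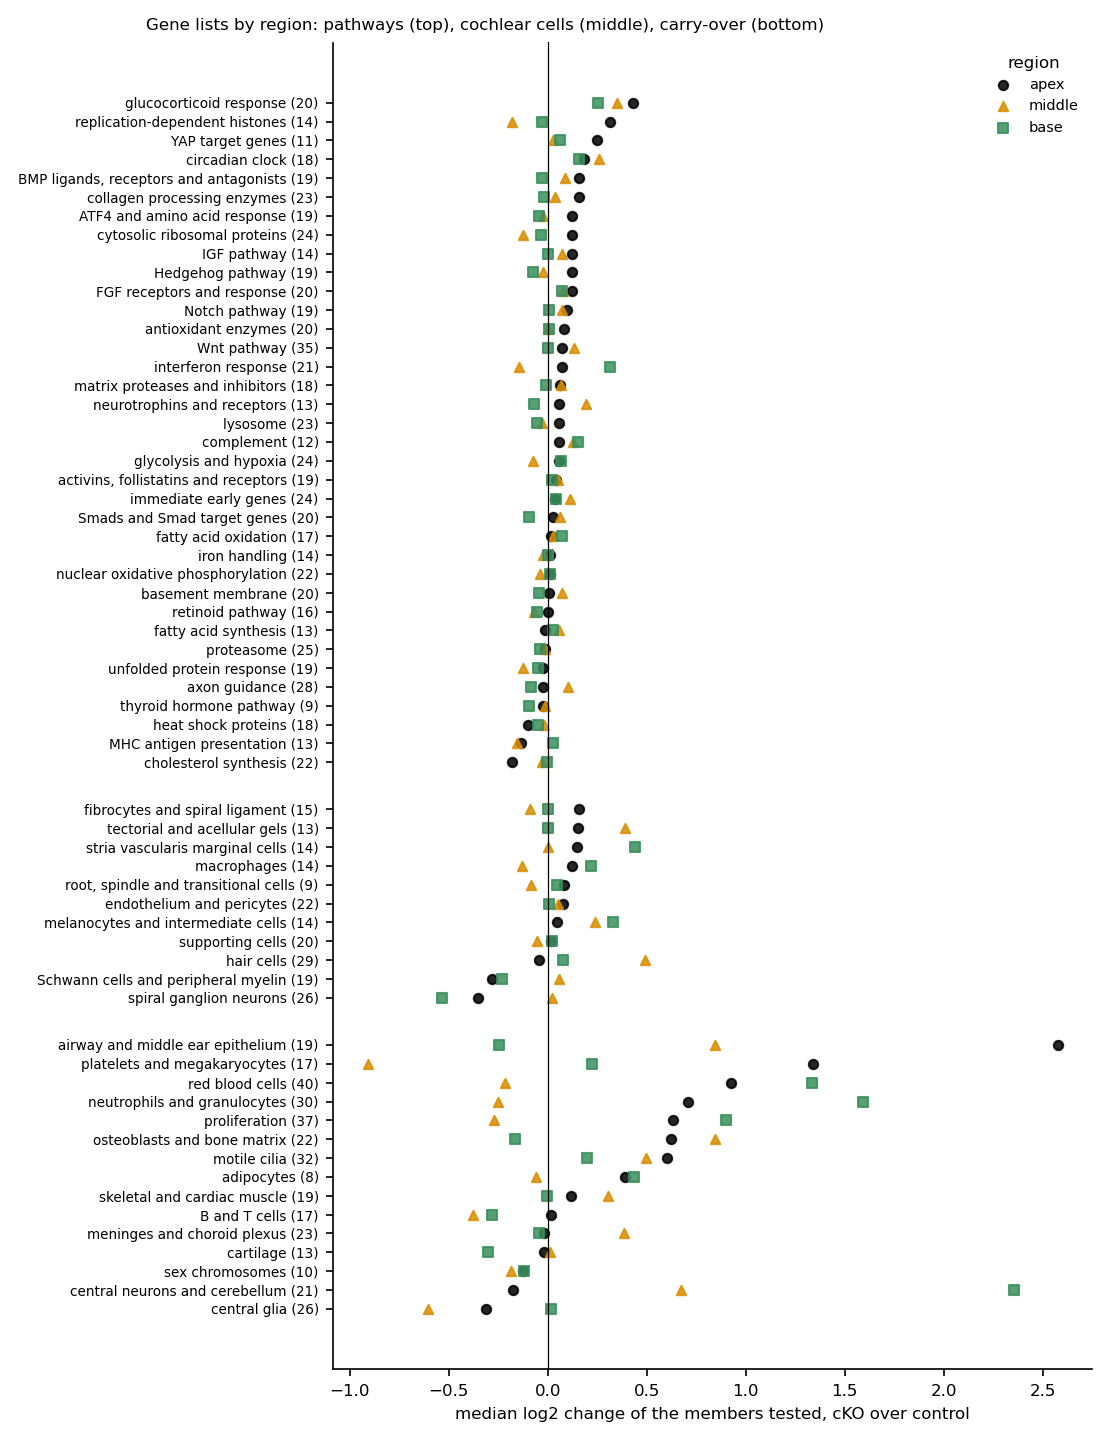
Median log2 change of cKO over control (x axis) of the members tested of 62 gene lists with at least 8 members tested (number in brackets), in the apex (black circles), middle (orange triangles) and base (green squares). In the apex the glucocorticoid list has the highest median of the pathway lists (0.43) and the spiral ganglion list the lowest of the cochlear lists (-0.35), while lists of blood, airway and bone spread much wider.

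Lists of blood and neighbouring tissue differed between the pools and touch the results above as follows. As a baseline for their counts, the calling rule picked 3.74% of all 17901 tested genes as higher in the cKO apex and 1.91% as lower. In the apex the red cell list had 26 of 40 members called higher (median 0.93, summed level 2766 to 2787 CPM in cKO, against 1990 to 1997 CPM in control) and the neutrophil list 16 of 30 (median 0.71, 375 to 382 CPM in cKO, against 252 to 257 CPM in control). In the middle their medians were -0.22 and -0.25. The airway list had 15 of 19 called higher in the apex (median 2.57, 453 to 459 CPM in cKO, against 87.8 to 90.3 CPM in control) and the central glia list 6 of 26 called lower and 1 higher (median -0.31), while its summed level was higher, at 10367 to 10399 CPM in cKO, against 9198 to 9218 CPM in control. The oligodendrocyte genes Olig2 and Klk6 were at or near 0 in both groups, at 0 CPM in the cKO apex, against 0.0453 and 0.193 CPM in the control apex. Meninges and choroid plexus genes were called both ways, 5 higher and 8 lower of 23. Their summed level was higher, at 22321.5 to 22419.4 CPM in the cKO apex, against 18158.9 to 18221.4 CPM in the control apex. In the middle it was 24267 to 24309 CPM in cKO, against 25360 to 25420 CPM in control. The platelet list had 13 of 17 called higher in the apex, with a median of 1.34 there and -0.91 in the middle. The part of these tissues in the results above was not tested.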

How the data were processed

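Whole cochleae of 4-week-old mice were divided into base, middle and apex, and ribosome-depleted TruSeq libraries were made from pooled RNA, per the labels' protocols. STAR 2.5.2b, Cuffdiff 2.2.1 and the build GRCm38/mm10 are named without roles in the submitters' processing notes. Whether counting used strand is not given in the sources used here. The authors deposited estimated counts per gene and library, and FPKM values (fragments scaled by gene length and library size) with the mean FPKM of each group.

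The estimated counts were rounded to whole numbers and tested with edgeR 4.0.16 (R 4.3.3). All 18 libraries in 6 groups shared one fit (12 residual degrees of freedom), with edgeR's expression filter, TMM normalization, the quasi-likelihood F test and Benjamini-Hochberg adjustment over 17901 genes. CPM values use TMM-scaled library sizes. limma 3.58.1 on log2(FPKM + pseudocount) and DESeq2 1.42.0 were alternatives, and tables were joined in Python 3.11.15 with pandas 2.3.3. Library totals ran from 24446760 to 33732726. Because the libraries of a pool share its RNA, the biological coefficient of variation between them was 0.00988, against 0.116 between pools after region and genotype were fitted. Library numbers did not pair samples: correlations of same-numbered deviations lay between -0.030 and 0.046. On simulated counts for the apex comparison, 93% of 100 genes changed by a log2 of 0.7 and 100% of 100 changed by 1.4 were recovered, with 3 false calls among 17701. The simulation used the spread between libraries of a pool, and its changed genes averaged at least 1 CPM. It therefore does not measure false calls between pools or animals, nor recovery at lower levels.

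The members and the 65 gene lists were chosen with earlier results of these data known. Named genes were Fst; the 12 largest rises and 12 largest falls among well-expressed called genes on no list of neighbouring tissue and level between control middle and base; up to 6 called members of each list, or 2 members where none was called; genes called alike in all regions; and the 6 with the largest difference between regions. Some further genes, and those from 400 CPM, were picked after their values had been seen. Gene positions are from GENCODE (17800 of 17901 tested genes matched). Some genes that met the rule are not reported here.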

Additional observations from a re-analysis of the deposited data

Results flagged for a closer look

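For the genes below, the apex change differed from the mean of the middle and base changes by the test of that difference (edgeR, adjusted p under 0.05 and a log2 difference of at least 0.5, as for 5.17% of all genes tested). The values are apex change minus the mean of the other regions, in log2 units. Many of these genes were named because of their apex change, which the test contains, or because of this difference. Their calls are therefore a description and no further support. Groups of 3 libraries are too small for a test of single outlying libraries.

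The difference was above 0 for the transporter genes Slc4a10 (1.16), Slc4a11 (0.86) and Slc5a3 (0.67), for the predicted gene Gm525 (1.15), and for the matrix genes Loxl1 (0.58) and Aebp1 (0.55). It was above 0 for the histone genes Hist1h4h (1.02), Hist1h4i (0.94) and Hist1h1c (0.73), and for the glucocorticoid list members Arrdc2 (0.64) and Cebpb (0.56). Among signalling genes it was 0.92 for Msx3, 0.77 for Adra2a, 0.74 for Dkk1, 0.73 for Wnt16, 0.62 for Tpd52l1, 0.56 for Mapk4, 0.56 for Igfbp2, 0.53 for Stk17b and 0.51 for Lbp. Further values above 0 were Rbp4 at 1.70, Nrgn at 1.45, Crabp1 at 1.01, Mmp9 at 1.002, Lmod3 at 0.58 and Trpm1 at 0.51. Of the genes named here, Igfbp2 and Rbp4 are also on the list of meninges and choroid plexus, Nrgn on that of platelets and Mmp9 on those of neutrophils and osteoclasts, and the part of these tissues was not tested.

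The difference was below 0 for Fst (-0.63), Ifi27l2a (-0.87), Crhbp (-0.67), Rgs4 (-0.74), Fgf12 (-0.80), Dpp6 (-1.49), Sfrp1 (-0.60), Fgf7 (-0.56), Ret (-0.64), Stra6 (-1.11) and Nr4a3 (-1.58). It was also below 0 for Tectb, of the tectorial membrane (-2.37), and for the hair cell gene Xirp2 (-2.53). The lowest apex change was -0.68 on the hair cell list and -1.60 on the list of tectorial and acellular gels. Changes in the middle and base therefore enter both differences. In the fit of 6 pools the genotype change over the 3 regions was 0.97 ± 0.75 for Xirp2 and 0.02 ± 0.92 for Tectb (standard error).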

How the results depend on the processing

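With counts, the number of apex calls ranged from 866 (DESeq2) to 1128 (no filter) around 1011, and the median change of all genes stayed within 0.02 of 0. limma on log2(FPKM + 1) gave 366 calls (287 higher, 79 lower), and 378 without a filter (297 and 81), since the pseudocount shrinks low genes; the share higher among calls was then 78.4% and 78.6%, against 66.2%. A log2 threshold of 1 left 365 calls (266 and 99), 16 of them well-expressed (12 and 4), and 10 list members. Counting as well-expressed only genes from 50 CPM left 70 calls (58 and 12). Without 1 apex library each, calls ranged from 931 to 976 (higher 642 to 683, lower 289 to 303), well-expressed calls from 132 to 137 (105 to 108 higher, 25 to 29 lower), list members called from 55 to 64, and the region difference from 859 to 883 calls (386 to 411 and 448 to 491). A fit with the replicate number as a block gave 1002 apex calls, 995 of them shared, 1164 in the middle, 1447 in the base and 916 for the region difference, and changed the call of none of the 156 named genes.

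Of the named genes, Atp5b changed sign: it was 0.26 with FPKM under each limma setting (0.25503 and 0.25529), and -0.04 with counts; the cause was not tested. Per1 passed the fold threshold with DESeq2 size factors, with DESeq2's own test, with TMM without the lists of neighbouring tissue, and when any apex library other than control replicate 3 was left out. limma on log2(FPKM + 1) ended the call of 19 of the 156. Each group is 1 pool, so the spread between animals is not measured, and genes near 1 CPM rest on few counts.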
